A study of Mus musculus with 9 samples.

Results

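The transforming growth factor β (TGF-β) superfamily genes described here are 47 genes chosen by name from the 56481 gene symbols counted in the study, and all 47 were found in the table. They comprise 3 TGF-β ligands, 10 ligands of the bone morphogenetic protein (BMP) and growth differentiation factor (GDF) kind, 3 activin and inhibin subunits, 7 type I receptors, 4 type II receptors, 3 co-receptors or pseudoreceptors, 5 secreted antagonists, 8 Smads and 4 Id genes. Transcripts were counted in 9 mouse libraries of 3 groups with 3 libraries each. The iCEC group, which the labels call induced corneal endothelial cells, was made by keeping neural crest cells on gelatin in a medium with 5% knockout serum replacement and 5 µM SB431542, an inhibitor of TGF-β type I receptors. Fresh medium was given every 2 days, clusters were seen by day 4 and colonies were examined on day 12. The labels do not say on which day iCEC RNA was taken. The pCEC group is labelled primary corneal endothelial cells, and the pNCC group is primary neural crest cells of E13.5 embryos. Both of these were maintained in DMEM holding 10% fetal bovine serum, so iCEC differed from them in the serum supplement as well as in the inhibitor, and the effects of the medium and of the inhibitor cannot be told apart. No genetic modification is named for any group, and the labels give neither the strain nor the age of the pCEC donors. They do not say whether the libraries of a group came from separate animals or cultures, so p-values measure the spread between these libraries, which may be technical.

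Ligands of this superfamily are dimers that bring together type I and type II receptor kinases. TGF-β and activin receptors pass the signal to Smad2 and Smad3, BMP receptors pass it to Smad1, Smad5 and Smad9, and both sets of Smads enter the nucleus with Smad4. The pathway is restrained by secreted traps such as Noggin and Gremlin, by co-receptors and by the inhibitory Smads 6 and 7, and the Id genes are direct targets of the BMP branch. SB431542 blocks the kinases encoded by Tgfbr1, Acvr1b and Acvr1c and leaves the BMP receptors active. In the anterior eye, TGF-β is known to drive corneal endothelial cells toward a fibroblast-like state.

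The smallest library, pCEC 3, held 27389292 counts and the largest, iCEC 1, held 47967113. Values are given as CPM, a gene's count scaled so that every library has the same total. In each library more genes had a count of exactly 2 (1989 to 2337) than of exactly 1 (723 to 970), so the mates of a read pair appear to have been counted separately and counting intervals are too narrow. iCEC 3 stood apart from iCEC 1 and iCEC 2, at distances of 1.73 and 1.80 (root mean square difference in log2 CPM per gene) against 1.17 between those libraries. Against the labels, 10 surface epithelium markers summed to 14492.1 to 20087.7 CPM in iCEC and 33272 to 45935 CPM in pCEC, against 88.6 to 137 CPM in pNCC. The list was split between iCEC and pCEC, with 3 markers called higher in iCEC and 4 lower. Krt12 and Pax6 averaged 0.00992 and 0.291 CPM in iCEC, and neither was tested there against pNCC. In pCEC Krt12 averaged 10180 CPM, and Pax6 was 2995.1-fold lower in iCEC than in pCEC. Krt8 and Krt18 reached 2717.4 and 1395.3 CPM in iCEC but at most 5.63 and 2.11 CPM in pCEC. In pCEC neither passed against pNCC. The 11 corneal endothelium markers summed to 633 to 763 CPM in iCEC and 1022.9 to 1258.3 CPM in pCEC, against 543 to 785 CPM in pNCC. Within the iCEC sums, Tjp1 held 220 to 438 CPM and Foxc1 81.1 to 285 CPM. In iCEC against pNCC, Slc4a11, Tjp1 and Foxc1 were called higher and Col8a2, Cdh2 and Aqp1 lower, and in pCEC against pNCC 7 were higher and 3 lower. Col8a2 and Aqp1 reached at most 0.119 and 0.625 CPM in iCEC, while pCEC held 37.6 to 153 and 133 to 364 CPM. The 8 neural crest markers summed to 246 to 693 CPM in iCEC and 212 to 301 CPM in pCEC, against 280 to 495 CPM in pNCC. Sox9 alone held 157 to 555 CPM in iCEC, against 32.4 to 41.8 CPM in pNCC, while Sox10 reached at most 0.0545 CPM in iCEC. In iCEC against pNCC, Sox9 and Tfap2a were called higher (8.84-fold and 9.28-fold), Sox10, Foxd3, Ngfr and Twist1 lower, and Snai2 and Pax3 did not pass. Foxd3 was at 0 in every iCEC library. In bulk RNA, fewer cells of a type and less RNA per cell cannot be told apart. The labels name polyA RNA for every library except pCEC 2 and pCEC 3, which are labelled total RNA.

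Between iCEC and pNCC, 5 members were higher in iCEC, 11 were lower and 27 of the 43 tested did not pass an adjusted p of 0.05 (edgeR quasi-likelihood test with Benjamini-Hochberg adjustment over all genes tested). Of all genes tested in that comparison 31.3% were called, 16.1% higher and 15.1% lower, so the members' 37.2% was near the background, with 11.6% higher and 25.6% lower. Their median log2 fold change was -0.46, against 0.05 over all genes. Without iCEC 3 the counts were 7 higher and 15 lower, and without pNCC 1 or pNCC 2 only 7 or 6 were lower. Between pCEC and pNCC, 7 members were higher and 27 lower of 44 tested. The background there was 62.5% called, with 30.3% higher and 32.2% lower, against 15.9% and 61.4% of the members, and the medians were -1.35 for the members and -0.01 for all genes. Between iCEC and pCEC, 8 members were higher in iCEC and 1 was lower of 38 tested, against a background of 20.4% called (10.5% higher and 9.92% lower), with medians of 0.86 and 0.04. That count of higher members was 3, 4 and 3 without pCEC 1, pCEC 2 and pCEC 3, and the count of lower members was 3 without iCEC 1 and 2 without iCEC 3. With pCEC represented by its polyA library alone, edgeR called 0 of 18806 genes between iCEC and pCEC and so 0 members, while 2529 genes and 10 members had an unadjusted p under 0.05. The comparisons of iCEC and of pCEC with pNCC share the same pNCC libraries, so their fold changes are set side by side and not tested against each other.

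**Figure D1:**
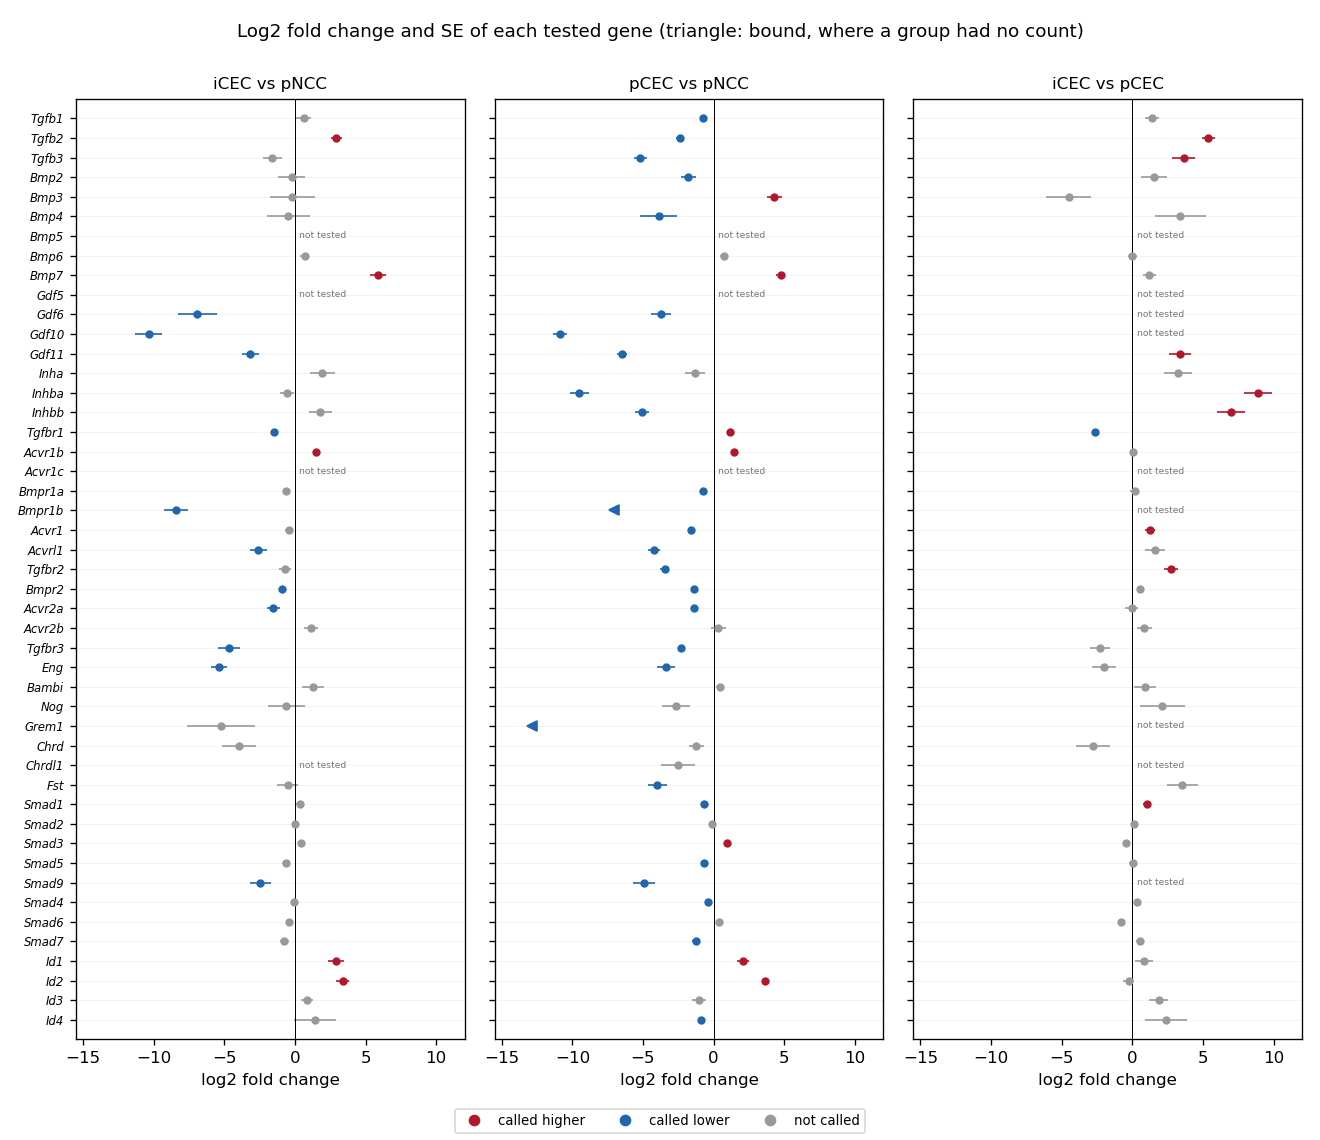
Log2 fold change of the 47 genes in iCEC against pNCC, pCEC against pNCC and iCEC against pCEC, with the standard error as a bar, red for genes called higher, blue for genes called lower and grey for the rest. Tgfb2 lies at 2.94 in the first panel and -2.41 in the second, Tgfbr1 at -1.51 and 1.14, and triangles mark bounds for Bmpr1b and Grem1, which had no count in pCEC.

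The type I receptors that SB431542 blocks were set differently in the 3 groups. Tgfbr1, the kinase receptor of TGF-β, stood at 24.2, 26.6 and 38.4 CPM in iCEC, at 217, 148 and 144 CPM in pCEC, and at 84.8, 87.8 and 79.5 CPM in pNCC. The 3 groups did not overlap, with iCEC lowest and pCEC highest. Tgfbr1 was 2.85-fold lower in iCEC than in pNCC (log2 fold change -1.51 ± 0.17, SE, n = 3 against 3, adjusted p = 0.00208), 2.2-fold higher in pCEC than in pNCC (adjusted p = 0.000611) and 6.2-fold lower in iCEC than in pCEC (adjusted p = 0.00207). Acvr1b, the type I receptor of activins, stood at 134, 160 and 127 CPM in iCEC, 145, 121 and 120 CPM in pCEC, and 52.1, 48.1 and 55.0 CPM in pNCC. Every iCEC and pCEC library lay above every pNCC library. Acvr1b rose 2.75-fold in iCEC (log2 fold change 1.46 ± 0.21, adjusted p = 0.00472) and 2.71-fold in pCEC (1.44 ± 0.12, adjusted p = 5.57e-05), and between iCEC and pCEC it did not pass (0.02 ± 0.19, adjusted p = 0.964). Acvr1c, a receptor of Nodal and some activins, had 4 counts in iCEC 2 and 4 in pNCC 2 and none elsewhere, and was not tested. The directions of Tgfbr1 and Acvr1b against pNCC held under every alternative run.

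Per transcript length, the balance of these receptors differed as well. In TPM, which divides counts by exon length before scaling, Acvr1b made up 89.1%, 89.9% and 83.0% of the summed level of Tgfbr1, Acvr1b and Acvr1c in iCEC 1, 2 and 3. It made up 49.7%, 54.7% and 55.2% in pCEC and 47.6%, 44.7% and 50.6% in pNCC. The share was thus higher in every iCEC library than in any other. The sum of the 3 receptors was 104, 127 and 119 TPM in iCEC, 217, 165 and 160 TPM in pCEC and 97.6, 94.0 and 95.6 TPM in pNCC.

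The 250 bases before the RefSeq start of these 2 receptor genes are shown because the genes moved in opposite directions in iCEC relative to pNCC. Each is written 5′ to 3′ on the gene's strand (GRCm38.p6, the assembly behind mm10), with capitals marking the GC element GGCGCC, which Smads of the BMP branch bind, and the Smad box CAGAC, which Smad3 and Smad4 bind, on either strand.
Tgfbr1, chr4:47352972-47353221, plus strand: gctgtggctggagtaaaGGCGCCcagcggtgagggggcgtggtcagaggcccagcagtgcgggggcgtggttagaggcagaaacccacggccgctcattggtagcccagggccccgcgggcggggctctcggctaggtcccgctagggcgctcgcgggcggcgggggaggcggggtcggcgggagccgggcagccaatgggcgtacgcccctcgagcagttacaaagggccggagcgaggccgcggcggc
Acvr1b, chr15:101173822-101174071, plus strand: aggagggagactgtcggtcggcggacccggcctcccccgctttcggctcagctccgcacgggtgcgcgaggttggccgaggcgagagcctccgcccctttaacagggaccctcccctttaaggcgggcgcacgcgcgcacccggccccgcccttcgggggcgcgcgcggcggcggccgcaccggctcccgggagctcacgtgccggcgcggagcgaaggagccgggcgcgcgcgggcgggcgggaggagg
The Tgfbr1 window held 1 GC element and no Smad box, and the Acvr1b window held neither, at GC contents of 74.8% and 78.8%. Among 32536 distinct windows of the same length in the RefSeq table, 9.65% held the GC element and 42.2% the Smad box. Of the 31 members with a window, 8 (25.8%) held the GC element and 12 (38.7%) the Smad box. Each member gave 1 window, the nearest to its GENCODE start, which for Bmpr1b lay 187161 bases away. The 32536 windows were not limited to 1 for each gene or matched for GC content. These shares are therefore not like for like, and their difference was not tested. Copies of both motifs can share at most 1 base. A match describes the letters of the window, and no binding was measured.

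Among the BMP type I receptors, Bmpr1b and Acvrl1 were lower in iCEC and in pCEC than in pNCC, and Bmpr1a and Acvr1 in pCEC. Bmpr1b, a receptor of BMPs and of Gdf5, had 2, 2 and 0 counts in iCEC, none in any pCEC library, and 8.52, 14.1 and 15.5 CPM in pNCC. Its level in iCEC was 378-fold below pNCC by the ratio of summed counts (95% counting interval 147 to 1390.4, adjusted p = 0.00157), and in pCEC it was at least 135-fold lower, computed at 3 counts in each library. Bmpr1a, the most widely used BMP receptor, stood at 108, 84.5 and 210 CPM in iCEC, 131, 97.7 and 95.7 CPM in pCEC, and 195, 200 and 198 CPM in pNCC. It fell 1.68-fold in pCEC (adjusted p = 0.00217), and in iCEC, where iCEC 3 lay above the pNCC libraries, it did not pass (log2 fold change -0.61 ± 0.27, adjusted p = 0.144). Acvr1, a receptor of BMPs and activins, stood at 31.9, 58.2 and 76.8 CPM in iCEC, 17.5, 21.5 and 24.9 CPM in pCEC, and 75.4, 70.6 and 72.1 CPM in pNCC. It was 3.11-fold lower in pCEC than in pNCC (adjusted p = 0.000151) and 2.36-fold higher in iCEC than in pCEC (adjusted p = 0.048). That last call was lost without iCEC 2 (adjusted p = 0.09), iCEC 3 (0.0506), pCEC 1 (0.15), pCEC 2 (0.157) or pCEC 3 (0.108), and over all its alternatives the adjusted p ran from 0.0135 to 0.366.

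Acvrl1 and Eng, a receptor and a co-receptor known from vessel endothelium, were highest in pNCC. Acvrl1 stood at 9.86, 12.2 and 2.89 CPM in iCEC, 1.17, 2.83 and 3.72 CPM in pCEC, and 50.4, 43.5 and 63.0 CPM in pNCC, falling 5.98-fold in iCEC (adjusted p = 0.0223) and 18.6-fold in pCEC (adjusted p = 0.00019). Eng stood at 3.31, 1.36 and 1.04 CPM in iCEC, 1.77, 10.8 and 8.32 CPM in pCEC, and 85.4, 93.7 and 62.5 CPM in pNCC. Eng fell 40.9-fold in iCEC (log2 fold change -5.35 ± 0.56, adjusted p = 0.00192) and 10.4-fold in pCEC (adjusted p = 0.00246). Neither group overlapped pNCC, while iCEC and pCEC overlapped each other. The call of Acvrl1 in iCEC was lost without iCEC 1 (adjusted p = 0.0596), pNCC 1 (0.0695), pNCC 2 (0.063) or pNCC 3 (0.077), and the log2 fold change of Eng was -6.04 without iCEC 1. Beside them, 8 vessel markers summed to 2.59 to 7.19 CPM in iCEC, 10.2 to 21.4 CPM in pCEC and 22.1 to 28.2 CPM in pNCC, with Emcn at 0 in every iCEC library. Tek, Emcn, Vwf and Egfl7 were called lower in iCEC than in pNCC. In pCEC against pNCC, Cdh5, Tek and Egfl7 were lower, while Kdr (9.2 CPM against 2.51 CPM, adjusted p = 0.0372) and Tie1 (2.81 CPM against 0.756 CPM, adjusted p = 0.0431) were higher. The part of vessel cells in the result was not tested.

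Of the 4 type II receptors none was called higher than in pNCC. Tgfbr2, which binds TGF-β first, stood at 355, 245 and 132 CPM in iCEC, 20.3, 41.7 and 39.7 CPM in pCEC, and 499, 341 and 401 CPM in pNCC. It fell 11.1-fold in pCEC (log2 fold change -3.47 ± 0.34, adjusted p = 0.000126), did not pass in iCEC against pNCC (-0.72 ± 0.42, adjusted p = 0.25), and was 6.64-fold higher in iCEC than in pCEC (adjusted p = 0.0146). The call between iCEC and pCEC was lost without pCEC 1 (adjusted p = 0.053), pCEC 2 (0.0569) or pCEC 3 (0.0582). Per length, Tgfbr2 made up 81.2%, 74.5% and 43.4% of the 4 type II receptors in iCEC, 15.6%, 37.0% and 33.5% in pCEC, and 64.2%, 61.5% and 62.3% in pNCC. Bmpr2, the type II receptor for BMPs, stood at 109, 107 and 159 CPM in iCEC, 102, 66.5 and 72.7 CPM in pCEC, and 248, 223 and 221 CPM in pNCC. It fell 1.86-fold in iCEC (adjusted p = 0.00854) and 2.63-fold in pCEC (adjusted p = 0.000276). The activin receptor Acvr2a stood at 19.2, 22 and 63.2 CPM in iCEC, 40.4, 26.8 and 30.6 CPM in pCEC, and 113, 76.4 and 95.8 CPM in pNCC, falling 2.86-fold in iCEC (adjusted p = 0.0397) and 2.68-fold in pCEC (adjusted p = 0.000625). The iCEC call of Acvr2a was lost without any of the other libraries than iCEC 3 (adjusted p from 0.0826 to 0.123), and its log2 fold change there was -2.13 without iCEC 3, against -1.52 with all libraries. Acvr2b, a second activin receptor, did not pass in any comparison and lay between 0.803 and 3.87 CPM. Its iCEC libraries lay above every pNCC library (log2 fold change 1.13 ± 0.47, adjusted p = 0.119).

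Tgfbr3, or betaglycan, a co-receptor that presents TGF-β and is shed as a trap, fell in both groups. It held 9.59, 3.46 and 31.2 CPM in iCEC, 69.5, 70.6 and 50.4 CPM in pCEC, and 349, 277 and 411 CPM in pNCC. The fall was 25.3-fold in iCEC (log2 fold change -4.66 ± 0.77, adjusted p = 0.00723) and 5.02-fold in pCEC (adjusted p = 7.21e-05), and without iCEC 3 the log2 fold change in iCEC was -5.67. In iCEC against pCEC it did not pass (log2 fold change -2.29 ± 0.71, adjusted p = 0.066) although the groups did not overlap. Bambi, a pseudoreceptor with no kinase, stood at 3.34, 12.4 and 39.6 CPM in iCEC, between 7.32 and 10.6 CPM in pCEC and between 5.47 and 9.36 CPM in pNCC, and passed in no comparison. Markers of smooth muscle and fibroblasts (7 genes, Acta2 and Pdgfra among them) summed to 142 to 386 CPM in iCEC, 270, 4063.8 and 2089.8 CPM in pCEC 1, 2 and 3, and 17558 to 20119.8 CPM in pNCC. Of these, 6 were called lower in iCEC and 7 in pCEC than in pNCC, and their part in the falls of Tgfbr3 was not tested. Within the list, Col1a1 held 247 to 4012.9 CPM in pCEC, while Acta2 and Pdgfra reached at most 3.11 and 22.3 CPM there. Of 5 keratocyte markers, Kera (55 to 466 CPM in pCEC) and Aldh3a1 were called higher in pCEC than in pNCC. Lum and Dcn did not pass there, and Ptgds was not tested. The part of keratocytes was not tested either.

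**Figure D2:**
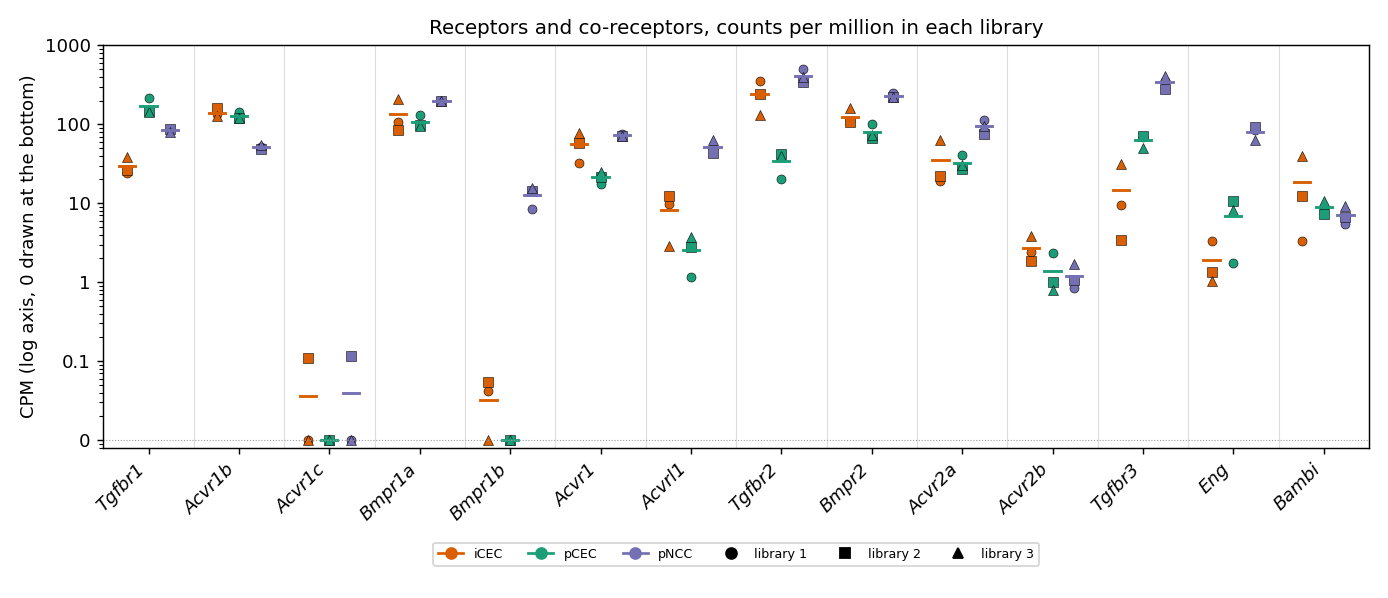
CPM of 14 receptor and co-receptor genes in each library on a log axis, with iCEC, pCEC and pNCC from left to right within each gene, a symbol for each library and a line at the mean of each group. Acvr1b is higher in iCEC and pCEC than in pNCC, Tgfbr1 is lowest in iCEC and highest in pCEC, and Bmpr1b, Acvrl1, Tgfbr3 and Eng are highest in pNCC.

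Of the 3 TGF-β ligands, Tgfb2 and Tgfb3 were higher in iCEC than in pCEC. Tgfb2, the ligand most studied in the aqueous humour and lens, stood at 66.3, 59.3 and 165 CPM in iCEC, 1.77, 2.44 and 2.04 CPM in pCEC, and 10.8, 14.5 and 11.1 CPM in pNCC. No groups overlapped, with iCEC highest and pCEC lowest. Tgfb2 was 7.67-fold higher in iCEC than in pNCC (log2 fold change 2.94 ± 0.38, SE, n = 3 against 3, adjusted p = 0.00326), 5.3-fold lower in pCEC than in pNCC (-2.41 ± 0.24, adjusted p = 0.000125) and 41.3-fold higher in iCEC than in pCEC (5.37 ± 0.46, adjusted p = 0.00207). Tgfb3, a ligand of palate and mesenchyme, stood at 16.2, 22.8 and 104 CPM in iCEC, 1.83, 5.05 and 3.1 CPM in pCEC, and 174, 141 and 88.7 CPM in pNCC. It fell 36.5-fold in pCEC (adjusted p = 7.44e-05), while in iCEC, where iCEC 3 lay within the pNCC range, it did not pass (log2 fold change -1.59 ± 0.67, adjusted p = 0.122). It was 12.4-fold higher in iCEC than in pCEC (log2 fold change 3.63, adjusted p = 0.0262), a call lost without pCEC 1 (adjusted p = 0.093), pCEC 2 (0.0758) or pCEC 3 (0.104), and the log2 fold change was 2.52 without iCEC 3. Tgfb1, the form most cells make, stood at 73.5, 146 and 41.6 CPM in iCEC, 26.2, 35.0 and 33.0 CPM in pCEC, and 49.8, 62.8 and 64.7 CPM in pNCC. It fell 1.72-fold in pCEC (adjusted p = 0.00687) and did not pass in iCEC against pNCC, where the libraries lay on both sides of pNCC, or in iCEC against pCEC (log2 fold change 1.38, adjusted p = 0.103).

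Per length, the leading TGF-β ligand was not the same in each group. Tgfb3 made up 15.5%, 14.7% and 45.5% of the 3 ligands in iCEC, 8.94%, 16.8% and 11.7% in pCEC, and 81.4%, 73.6% and 64.0% in pNCC. Tgfb1 led in iCEC 1 and iCEC 2 (47.3% and 63.0%) and in every pCEC library (86.0%, 78.4% and 83.7%), and it held 15.6% to 31.3% in pNCC. Tgfb2 made up 22.3% to 42.2% in iCEC, 4.52% to 5.05% in pCEC and 2.95% to 4.68% in pNCC. The sum of the ligands was 94.8, 144 and 231 TPM in iCEC, 19.8, 29.2 and 25.4 TPM in pCEC, and 249, 219 and 159 TPM in pNCC, so that pCEC stood below both other groups.

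The 250 bases before the RefSeq start of Tgfb2 are shown, with the same capitals, since it is the ligand that moved in opposite directions in iCEC and in pCEC.
Tgfb2, chr1:186705990-186706239, minus strand: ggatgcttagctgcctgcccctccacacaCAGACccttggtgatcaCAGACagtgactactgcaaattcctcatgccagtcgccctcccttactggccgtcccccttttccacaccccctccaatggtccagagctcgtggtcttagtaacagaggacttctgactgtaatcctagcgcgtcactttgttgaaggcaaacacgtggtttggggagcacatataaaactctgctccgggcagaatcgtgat
It held 2 copies of the Smad box and no GC element at a GC content of 53.6%, and 1 copy of TATAAA, which 12.3% of all windows hold on either strand.

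The activin β subunits were lower in pCEC than in iCEC and in pNCC. Inhba, which forms activin A, stood at 55.7, 125 and 206 CPM in iCEC, 0.0598, 0.111 and 0.584 CPM in pCEC, and 113, 228 and 221 CPM in pNCC. It was 726-fold lower in pCEC than in pNCC (log2 fold change -9.5 ± 0.7, adjusted p = 3.76e-05) and 473-fold higher in iCEC than in pCEC (adjusted p = 0.00408), and in iCEC against pNCC it did not pass (-0.58 ± 0.48, adjusted p = 0.403). Inhbb, which forms activin B, stood at 182, 85.8 and 908 CPM in iCEC, 4.25, 2.11 and 2.04 CPM in pCEC, and 60.6, 88.7 and 158 CPM in pNCC. It was 34-fold lower in pCEC than in pNCC (adjusted p = 0.000133) and 124-fold higher in iCEC than in pCEC (adjusted p = 0.00786). Against pNCC the iCEC libraries overlapped and the test did not pass (log2 fold change 1.80 ± 0.84, adjusted p = 0.156). Without pCEC 3, Inhba kept 6 counts in pCEC and was by summed counts 2189.9-fold lower in pCEC than in pNCC (95% counting interval 1005.9 to 5968.0) and 1388.1-fold higher in iCEC than in pCEC (638 to 3783.2). Without iCEC 3 the log2 fold change of Inhbb in iCEC against pCEC was 5.55 (6.95 with all libraries). Inha, the inhibin subunit that antagonises activin, stood at 11, 29.2 and 3.75 CPM in iCEC, 0.479, 2.94 and 1.02 CPM in pCEC, and 6.37, 2.38 and 3.48 CPM in pNCC, and passed in no comparison.

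Among the BMP and GDF ligands, Bmp7 rose in both groups while several GDFs fell. Bmp7, a ligand needed for eye development, stood at 27.7, 28.6 and 90.6 CPM in iCEC, 15.3, 23.4 and 18 CPM in pCEC, and 0.653, 1.06 and 0.628 CPM in pNCC. It was 59.8-fold higher in iCEC (log2 fold change 5.90 ± 0.57, adjusted p = 0.00145) and 26.5-fold higher in pCEC (4.73 ± 0.30, adjusted p = 1.57e-05), and without iCEC 3 the iCEC value was 5.25. Bmp3, an atypical BMP that opposes the others in bone, stood at 3.13, 0.109 and 0 CPM in iCEC, 23 ± 8.56 CPM in pCEC (SD, n = 3, from 452, 1089 and 691 counts), and 2.11, 1.14 and 0.628 CPM in pNCC. It rose 19.7-fold in pCEC (adjusted p = 0.000352). In iCEC its libraries spread from 0 to 150 counts and it did not pass.

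Gdf10, a ligand related to Bmp3, was almost absent outside pNCC. It had 4 counts in all of iCEC and 2 in all of pCEC, against 59.1, 40.9 and 48 CPM in pNCC. By summed counts it was 1452.7-fold lower in iCEC (95% counting interval 567 to 5333.6, adjusted p = 0.00123) and 2379.5-fold lower in pCEC (658 to 19650, adjusted p = 3.39e-06). Gdf11, a relative of myostatin, stood at 4.29, 1.42 and 9.82 CPM in iCEC, 0.658, 0.333 and 0.329 CPM in pCEC, and 33.6, 44.9 and 51.8 CPM in pNCC. It was 8.91-fold lower in iCEC than in pNCC (adjusted p = 0.013), 89.8-fold lower in pCEC (adjusted p = 5.97e-06) and 10.5-fold higher in iCEC than in pCEC (adjusted p = 0.0276). Gdf6, a ligand of joint and eye development, stood at 0.167, 0 and 0 CPM in iCEC, 0.18, 0.998 and 0.438 CPM in pCEC, and 11.9, 8.56 and 3.45 CPM in pNCC. It was 116-fold lower in iCEC by summed counts (95% counting interval 58.7 to 270, adjusted p = 0.0128) and 13.1-fold lower in pCEC (adjusted p = 0.00303).

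Single libraries bore on several of these GDF values. In iCEC against pNCC the call of Gdf6 was lost without pNCC 1 (adjusted p = 0.0596) or pNCC 2 (0.0578), and that of Gdf11 without pNCC 2 (0.0503) or pNCC 3 (0.0509). By summed counts Gdf10 was 863-fold lower in iCEC without iCEC 1 (95% counting interval 337 to 3170.4), and all of its iCEC counts were in iCEC 3, without which it was at least 684-fold lower at 3 counts in each library. Without iCEC 1 no count of Gdf6 was left in iCEC, and the bound was at least 93.4-fold lower. The log2 fold change of Gdf11 was -3.87 without iCEC 3 (-3.15 with all). In pCEC, Gdf10 was at least 512-fold lower than in pNCC without pCEC 1, which held its only pCEC counts, and 1493.8-fold lower without pCEC 2 (413 to 12340). The log2 fold change of Gdf6 was -4.52 without pCEC 2 (-3.72 with all). Between iCEC and pCEC the call of Gdf11 was lost without iCEC 1 (adjusted p = 0.0559), pCEC 1 (0.0807), pCEC 2 (0.123) or pCEC 3 (0.12). The log2 fold change was 2.66 without iCEC 3 (3.39 with all).

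Bmp2 and Bmp4 were lower in pCEC than in pNCC, and Bmp6 passed no test. Bmp2, a ligand of bone and heart development, stood at 8.13, 8.15 and 0.744 CPM in iCEC, 1.02, 2.58 and 1.97 CPM in pCEC, and 5.41, 4.11 and 11.6 CPM in pNCC. Bmp4, an early patterning ligand, stood at 6.61, 1.09 and 0.0893 CPM in iCEC, 0, 0.555 and 0.11 CPM in pCEC, and 6.9, 4.02 and 0.457 CPM in pNCC. Both passed as lower in pCEC than in pNCC, Bmp2 by 3.49-fold (adjusted p = 0.0211) and Bmp4 by 14.7-fold (adjusted p = 0.0345), and the groups of Bmp4 overlapped. The call of Bmp2 was lost without pCEC 1 (adjusted p = 0.0552), pCEC 3 (0.0614) or pNCC 3 (0.0649, log2 fold change -1.20 against -1.80), and that of Bmp4 without pCEC 1 (0.0654, log2 fold change -3.22), pCEC 3 (0.105), pNCC 1 (0.107, -3.13) or pNCC 2 (0.0779), against -3.88 with all libraries. Without pCEC 2 Bmp4 kept 3 counts in pCEC and was 75-fold lower by summed counts (95% counting interval 25.5 to 365). Bmp6, known from iron control, lay between 4.51 and 13.0 CPM in all 9 libraries and passed in no comparison. Bmp5 had 90 and 98 counts in pNCC 1 and pNCC 2 and none in any other library, and Gdf5, a ligand of joints, reached at most 1.55 CPM, in iCEC 3. Neither was tested.

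Of the 5 secreted antagonists, Grem1 and Fst fell in pCEC against pNCC. Grem1 (Gremlin), a BMP trap, stood at 54.4, 0.218 and 0 CPM in iCEC, at 0 in every pCEC library, and at 368, 706 and 1048 CPM in pNCC. It was at least 7514.1-fold lower in pCEC, computed at 3 counts in each library (adjusted p = 0.000101). In iCEC the groups did not overlap, iCEC 1 lay far above iCEC 2 and iCEC 3, and the test did not pass (log2 fold change -5.24 ± 2.4, adjusted p = 0.15). Fst (follistatin), which traps activin, stood at 16.4, 7.71 and 82.7 CPM in iCEC, 1.83, 5.49 and 0.657 CPM in pCEC, and 44.4, 47.6 and 47.7 CPM in pNCC. It fell 15.8-fold in pCEC (log2 fold change -3.98 ± 0.65, adjusted p = 0.00154, and -5.08 without pCEC 2), while the iCEC libraries lay on both sides of pNCC. Chrd (chordin) stood at 0.688, 0 and 0.357 CPM in iCEC, 0.987, 3.44 and 2.08 CPM in pCEC, and 8.52, 5.13 and 3.17 CPM in pNCC, and missed the threshold in iCEC (adjusted p = 0.051). Nog (Noggin) and Chrdl1, both BMP traps, reached at most 1.7 and 6.03 CPM and passed in no comparison in which they were tested.

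**Figure D3:**
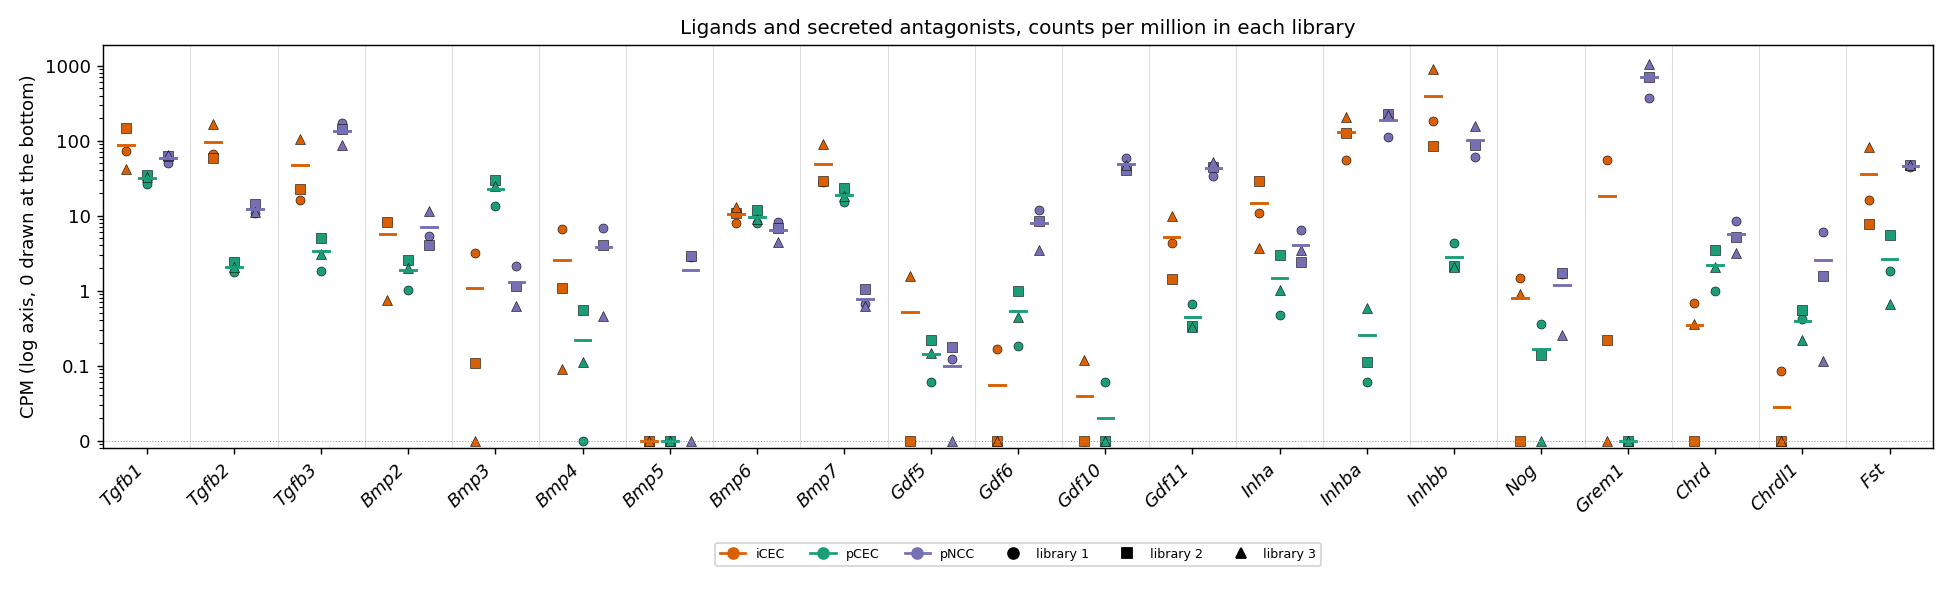
CPM of 21 ligand and antagonist genes in each library on a log axis, with iCEC, pCEC and pNCC from left to right within each gene, a symbol for each library and a line at the mean of each group. Inhba and Inhbb are lowest in pCEC, Bmp7 is high in iCEC and pCEC, and Grem1 has a count in iCEC 1 (54.4 CPM) and iCEC 2 but none in pCEC.

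Apart from Smad9, no Smad that was called differed by more than 2.4-fold. Smad3, which carries TGF-β and activin signals, stood at 71.3, 68.3 and 82.2 CPM in iCEC, 90.4, 102 and 90.5 CPM in pCEC, and 63.1, 51.3 and 48.4 CPM in pNCC. It rose 1.9-fold in pCEC (log2 fold change 0.93 ± 0.13, adjusted p = 0.000648) and did not pass in iCEC (0.45 ± 0.15, adjusted p = 0.0693), although the groups did not overlap in either case. Its partner Smad2 lay between 50.6 and 103 CPM and passed in no comparison. Of the BMP Smads, Smad1 stood at 44.3, 68.4 and 43.7 CPM in iCEC, 20.7, 21.9 and 27.3 CPM in pCEC, and 39.9, 44.2 and 39.5 CPM in pNCC. It fell 1.61-fold in pCEC against pNCC (adjusted p = 0.00667) and was 2.07-fold higher in iCEC than in pCEC (adjusted p = 0.0494). The call between iCEC and pCEC was lost without any library but iCEC 3 (adjusted p from 0.0732 to 0.171). Smad5 stood at 59.0, 59.5 and 122 CPM in iCEC, 92.4, 61.8 and 59.5 CPM in pCEC, and 138, 124 and 106 CPM in pNCC, and fell 1.58-fold in pCEC (adjusted p = 0.0131).

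Smad9, the least abundant BMP Smad, fell in both groups. It stood at 0.208, 0.272 and 1.19 CPM in iCEC, 0, 0.166 and 0.073 CPM in pCEC, and 3.95, 1.99 and 2.57 CPM in pNCC. The fall was 5.41-fold in iCEC (adjusted p = 0.0489) and 34.1-fold in pCEC by summed counts (95% counting interval 17.1 to 79.7, adjusted p = 0.00136). The iCEC call was lost without any library but iCEC 3 (adjusted p from 0.0984 to 0.156), and the log2 fold change was -3.47 without iCEC 3 (-2.44 with all). In pCEC the ratio of summed counts was 22.3 without pCEC 1 (11.2 to 52.2) and 85.5 without pCEC 2 (23.5 to 710).

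Smad4 and Smad7 fell in pCEC, and Smad6 passed in no comparison. Smad4, the shared partner, stood at 105, 106 and 119 CPM in iCEC, 86.6, 75.6 and 80.3 CPM in pCEC, and 121, 118 and 116 CPM in pNCC, and it fell 1.34-fold in pCEC (adjusted p = 0.00847). Smad7, a feedback inhibitor, stood at 15.5, 22 and 18.9 CPM in iCEC, 9.81, 12.4 and 14 CPM in pCEC, and 21.7, 31.9 and 41.3 CPM in pNCC. It fell 2.4-fold in pCEC (adjusted p = 0.00633) and did not pass in iCEC (log2 fold change -0.74 ± 0.32, adjusted p = 0.127). Smad6, the BMP feedback inhibitor, stood at 14.2, 16.1 and 14.8 CPM in iCEC, 20.9, 26.7 and 23.9 CPM in pCEC, and 17.8, 18.5 and 23.2 CPM in pNCC. The 3 iCEC libraries lay below the pCEC libraries, with adjusted p = 0.0517.

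The Id genes, which encode helix-loop-helix proteins that block other factors from binding DNA, did not move as one. Id2 stood at 86.9, 232 and 252 CPM in iCEC, 273, 170 and 189 CPM in pCEC, and 22.6, 15.8 and 16.4 CPM in pNCC. Id1 stood at 175, 135 and 44.4 CPM in iCEC, 33.3, 104 and 53.2 CPM in pCEC, and 14, 17.7 and 18.4 CPM in pNCC. Every iCEC and pCEC library lay above every pNCC library for both genes. Id2 rose 10.4-fold in iCEC (log2 fold change 3.38 ± 0.44, SE, n = 3 against 3, adjusted p = 0.00344) and 12.6-fold in pCEC (3.66 ± 0.23, adjusted p = 1.42e-05). Id1 rose 7.38-fold in iCEC (2.88 ± 0.57, adjusted p = 0.013) and 4.17-fold in pCEC (2.06 ± 0.41, adjusted p = 0.00408). The iCEC call of Id1 was lost without pNCC 1 (adjusted p = 0.0655), pNCC 2 (0.063) or pNCC 3 (0.0551). Between iCEC and pCEC none of the 4 Id genes passed, with log2 fold changes of 0.79 ± 0.64 for Id1 and -0.26 ± 0.40 for Id2.

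Id3 and Id4 behaved differently. Id3 stood at 110, 136 and 50.9 CPM in iCEC, 13.3, 48.2 and 15.2 CPM in pCEC, and 50.5, 67.5 and 55.8 CPM in pNCC, and passed in no comparison. Id4 stood at 1.29, 14.4 and 255 CPM in iCEC, 13.7, 18 and 12.7 CPM in pCEC, and 35.5, 34.8 and 19.4 CPM in pNCC. The 3 iCEC libraries thus lay far below, below and far above pNCC, and Id4 did not pass there (log2 fold change 1.44 ± 1.5, adjusted p = 0.508, and -1.82 without iCEC 3). In pCEC it fell 1.83-fold (adjusted p = 0.0163), a call lost without pCEC 1 (adjusted p = 0.0659), pCEC 3 (0.0732), pNCC 1 (0.0536) or pNCC 2 (0.0568).

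The 250 bases before the RefSeq start of Id2 are shown, with the same capitals, as it is the Id gene whose call held without any 1 library in both comparisons with pNCC.
Id2, chr12:25096093-25096342, minus strand: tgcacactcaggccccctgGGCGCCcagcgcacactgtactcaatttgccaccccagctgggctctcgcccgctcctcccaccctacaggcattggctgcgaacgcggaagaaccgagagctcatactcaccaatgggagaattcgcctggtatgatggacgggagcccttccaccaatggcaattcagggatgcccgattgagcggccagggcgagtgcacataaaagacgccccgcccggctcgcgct
The window held 1 GC element and no Smad box at a GC content of 62.8%, and this RefSeq start lies 1048 bases from the GENCODE gene start.

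**Figure D4:**
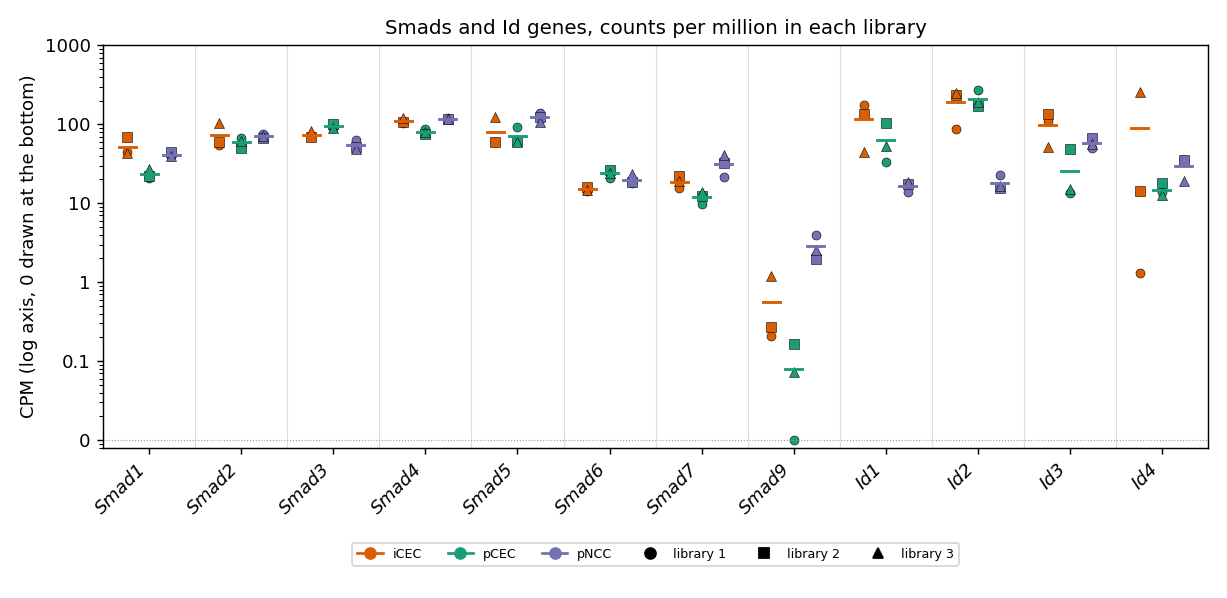
CPM of the 8 Smads and 4 Id genes in each library on a log axis, with iCEC, pCEC and pNCC from left to right within each gene, a symbol for each library and a line at the mean of each group. Id1 and Id2 are higher in all iCEC and pCEC libraries than in pNCC, the 3 iCEC libraries of Id4 spread from 1.29 to 255 CPM, and most Smads lie close together.

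The summed level of the Id genes per length was 764, 918 and 813 TPM in iCEC, 498, 628 and 440 TPM in pCEC, and 231, 264 and 228 TPM in pNCC. The leading member differed, with Id1 first in iCEC 1 and iCEC 2 (60.9% and 39.9%), Id2 first in iCEC 3 (43.8%), pCEC 1 (73.9%) and pCEC 3 (57.4%), Id1 first in pCEC 2 (46.9%), and Id3 first in all pNCC libraries (48%, 55.1% and 53.0%). For the Smads of the BMP branch, Smad1, Smad5 and Smad9 summed to 46.4, 59.8 and 81.3 TPM in iCEC, 51.7, 39.0 and 40.3 TPM in pCEC, and 101, 93.1 and 81.9 TPM in pNCC. Smad2 and Smad3 summed to 58.9, 60.1 and 91.2 TPM in iCEC, 78.6, 79.5 and 75.8 TPM in pCEC, and 78.2, 65.3 and 65.1 TPM in pNCC. The activin subunits Inhba and Inhbb summed to 158, 125 and 844 TPM in iCEC, 3.31, 1.69 and 1.86 TPM in pCEC, and 126, 218 and 279 TPM in pNCC.

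**Figure D5:**
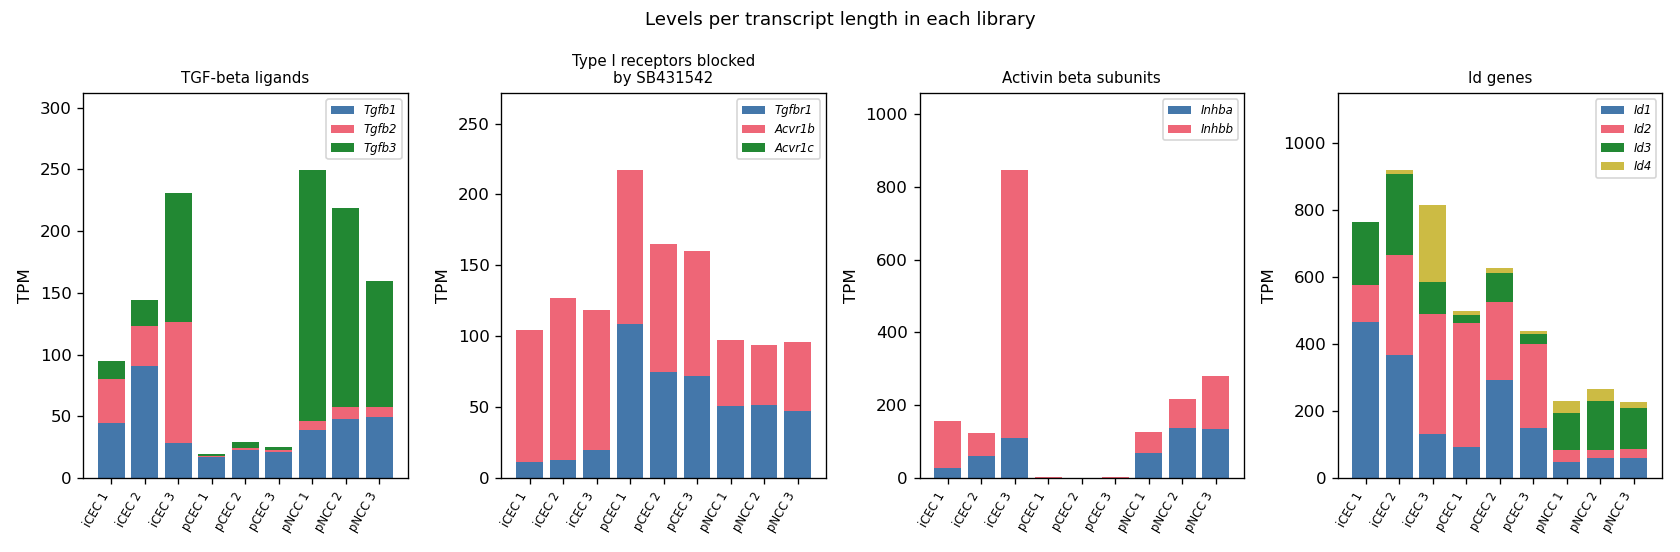
Stacked bars of the level per transcript length (TPM, starting at 0) of TGF-β ligands, type I receptors blocked by SB431542, activin β subunits and Id genes in each library. Acvr1b makes up most of the receptor sum in iCEC, activin subunits reach 844 TPM in iCEC 3 and at most 3.31 TPM in pCEC, and the Id sum is lowest in pNCC.

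The wider pathway was described with 89 further genes, of which 67, 66 and 64 were tested in iCEC against pNCC, pCEC against pNCC and iCEC against pCEC. In the first comparison 9 were higher and 14 lower, with a median log2 fold change of -0.20. In the second 10 were higher and 39 lower, with a median of -1.12. In the third 13 were higher and 4 lower, with a median of 0.60. The shares called were 34.3%, 74.2% and 26.6%, beside background shares of 31.3%, 62.5% and 20.4%.

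Genes that hold TGF-β latent or release it moved in both directions. Of 13 such genes, 3 rose and 2 fell in iCEC against pNCC, 2 rose and 8 fell in pCEC against pNCC, and 4 were higher and none lower in iCEC against pCEC. The shares called were 38.5%, 76.9% and 30.8%, beside 31.3%, 62.5% and 20.4% of all genes tested. Itgb6, the integrin subunit that activates TGF-β on epithelia, rose 45.4-fold in iCEC (36.6 ± 11.3 CPM against 0.822 ± 0.263 CPM, SD, n = 3 each, adjusted p = 0.0011) and 25.2-fold in pCEC (adjusted p = 4.4e-05). Lrrc32, which anchors latent TGF-β at the cell surface, fell 21-fold in iCEC (12.5 ± 7.78 CPM against 255 ± 8.76 CPM, adjusted p = 0.002) and 66.7-fold in pCEC (adjusted p = 0.000156, and log2 fold change -6.70 without pCEC 2 against -6.06). Ltbp2, a latent TGF-β binding protein of microfibrils, fell 662-fold in pCEC (0.891 ± 0.576 CPM against 639 ± 43.0 CPM, adjusted p = 1.09e-05, log2 fold change -9.37, and -9.99 without pCEC 3). Pcsk5, a proprotein convertase, fell 11.7-fold in iCEC (adjusted p = 0.00248) and 124-fold in pCEC (adjusted p = 4.55e-05). Ltbp4, another latent TGF-β binding protein, rose 8.75-fold in iCEC (adjusted p = 0.0091, log2 fold change 3.13, and 2.40 without iCEC 2) and 4.07-fold in pCEC (adjusted p = 0.000524).

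The 4 genes of latency and activation that were higher in iCEC than in pCEC were Itgb8, Thbs1, Ltbp2 and Pcsk5. Itgb8, a further integrin subunit that activates TGF-β, averaged 122 ± 145 CPM in iCEC against 0.457 ± 0.231 CPM in pCEC (adjusted p = 0.00751, log2 fold change 7.83, and 6.34 without iCEC 3). Thbs1, a matrix protein that can release TGF-β from its latent form, was 18-fold higher in iCEC than in pCEC (adjusted p = 0.00928, and 0.0515 without pCEC 3). Pcsk5 was 10.7-fold higher (adjusted p = 0.0148, and 0.0697 without pCEC 3). For Ltbp2 the difference was 151-fold (adjusted p = 0.0128), not passing without pCEC 1 (0.0611) or pCEC 2 (0.0683). The log2 fold change of 7.23 was 6.32 without iCEC 1, 7.83 without iCEC 3 and 7.89 without pCEC 3.

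Of 16 other extracellular antagonists, 12 were tested against pNCC. In iCEC 2 rose and 2 fell, and in pCEC 2 rose and 7 fell. That was 33.3% and 75% of those tested, beside 31.3% and 62.5% of all genes. Crim1, a membrane protein that binds BMPs, rose 4.34-fold in iCEC (182 ± 56.6 CPM against 41.3 ± 8.01 CPM, adjusted p = 0.00184) and 6.3-fold in pCEC (adjusted p = 1.32e-05). Nbl1, a BMP trap, fell 9.57-fold in pCEC (adjusted p = 3.06e-06) and was 9.24-fold higher in iCEC than in pCEC (adjusted p = 0.00566). Fstl1, a secreted relative of follistatin, fell 53.7-fold in pCEC (adjusted p = 0.000253).

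The antagonists Sostdc1 and Wfikkn2 were called in iCEC, and each call was lost when some single libraries were left out. Sostdc1, a BMP and Wnt antagonist, averaged 127 ± 197 CPM in iCEC, 0.777 ± 0.312 CPM in pCEC and 0.523 ± 0.35 CPM in pNCC. Against pNCC its adjusted p was 0.032, and 0.105, 0.122 and 0.116 without pNCC 1, 2 and 3, and its log2 fold change of 7.77 was 4.81 without iCEC 3. Against pCEC its adjusted p was 0.0453, and 0.0551 without iCEC 2 and 0.145, 0.147 and 0.154 without pCEC 1, 2 and 3, and its log2 fold change of 7.12 was 4.12 without iCEC 3. Wfikkn2, a trap of myostatin and Gdf11, was below 1 CPM on average in all groups and was 45.5-fold lower in iCEC than in pNCC by summed counts (adjusted p = 0.0206). That call was lost without iCEC 1 (0.0576), pNCC 1 (0.0845), pNCC 2 (0.073) or pNCC 3 (0.0519), and the ratio of summed counts was 27.1 without iCEC 1 (95% counting interval 7.25 to 227) and 29.1 without pNCC 1 (7.46 to 250). Without iCEC 2, which held its only iCEC counts, Wfikkn2 was at least 10.3-fold lower at 3 counts in each library.

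Of 7 other receptors and co-receptors, 4 were tested. Cd109, a co-receptor that restrains TGF-β, averaged 42.5 ± 28 CPM in iCEC, 229 ± 32.8 CPM in pCEC and 195 ± 17.5 CPM in pNCC. It was lower in iCEC than in pNCC (adjusted p = 0.0336), a call lost without iCEC 1 (0.0987), pNCC 1 (0.0917), pNCC 2 (0.102) or pNCC 3 (0.0902), and its log2 fold change of -2.12 was -2.86 without iCEC 2. It was lower in iCEC than in pCEC (adjusted p = 0.0232), a call lost without iCEC 1 (0.0732), pCEC 1 (0.075), pCEC 2 (0.0731) or pCEC 3 (0.0713). The log2 fold change of -2.50 was -3.18 without iCEC 2. In pCEC against pNCC the groups overlapped, with adjusted p = 0.0373, which was 0.0571 without pCEC 2 and 0.109, 0.0685 and 0.112 without pNCC 1, 2 and 3. Neo1 and Rgma, a receptor and a BMP co-receptor that bind each other, fell 2.4-fold (adjusted p = 0.00018) and 1.87-fold (adjusted p = 0.0119) in pCEC.

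Inside the cell, 22 regulators of the pathway were listed and 20 tested in each comparison. In iCEC against pNCC 1 rose and 3 fell, in pCEC against pNCC 3 rose and 10 fell, and in iCEC against pCEC 2 were higher. Those called made up 20%, 65% and 10% of the regulators tested, beside 31.3%, 62.5% and 20.4% of all genes. The list was thus near or below the background. Fkbp1a, the immunophilin that holds type I receptors inactive, fell 3.64-fold in iCEC (98.7 ± 20.2 CPM against 356 ± 55.1 CPM, adjusted p = 0.00172) and 35.5-fold in pCEC (9.14 ± 3.05 CPM, adjusted p = 1.16e-05), and was 9.79-fold higher in iCEC than in pCEC (adjusted p = 0.0024). The repressor gene Ski fell 2.61-fold in iCEC (adjusted p = 0.00231), and Ldlrad4, a negative regulator that TGF-β induces, fell 10.6-fold in iCEC (adjusted p = 0.00287) and 11.7-fold in pCEC (adjusted p = 2.94e-06). The repressor gene Skil fell 2.35-fold in pCEC (adjusted p = 0.000175). Tab1, a partner of the kinase Map3k7, rose 1.91-fold in iCEC (adjusted p = 0.00862, and 0.052 without pNCC 3). Usp9x, a deubiquitinase of Smad4, was 2.5-fold higher in iCEC than in pCEC (adjusted p = 0.038), a call lost without iCEC 1 (0.097), pCEC 1 (0.0798), pCEC 2 (0.149) or pCEC 3 (0.146). Pmepa1, another gene that TGF-β induces and that restrains the pathway, fell 16.4-fold in pCEC (14.5 ± 6.55 CPM against 262 ± 30.3 CPM, adjusted p = 0.00018).

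Known response genes of both branches were counted as lists. Of 8 genes that rise with TGF-β, 5 fell and none rose in iCEC against pNCC, where 15.1% of all genes tested fell, and 7 fell and 1 rose in pCEC against pNCC, where 32.2% fell and 30.3% rose. Acta2 and Col1a1 of this list are also among the smooth muscle and fibroblast markers given above. The part of such cells in these falls was not tested. Ccn2, also on the list, spread from 35.5 to 1083.3 CPM in iCEC, against 106 to 336 CPM in pNCC. Acta2, the smooth muscle actin, fell 10-fold in iCEC (216 ± 142 CPM against 2073.9 ± 719 CPM, adjusted p = 0.00554) and 842-fold in pCEC (2.24 ± 0.836 CPM, adjusted p = 1e-05), and was 85.3-fold higher in iCEC than in pCEC (adjusted p = 0.00248). Col1a1, a chain of collagen I, fell 1583.5-fold in iCEC (8.37 ± 7.16 CPM against 14230 ± 2339.9 CPM, adjusted p = 0.0082). Tagln, a smooth muscle protein, fell 8.51-fold in iCEC from a low level (0.298 to 0.438 CPM against 2.21 to 4.25 CPM, adjusted p = 0.00674). The matrix genes Postn and Fn1 fell 908-fold (adjusted p = 1.75e-05) and 8.86-fold (adjusted p = 0.000463) in pCEC. The exception was Tgfbi, a matrix protein abundant in the cornea, at 92 ± 41 CPM in iCEC, 1820.4 ± 428 CPM in pCEC and 315 ± 135 CPM in pNCC, which was 21.3-fold lower in iCEC than in pCEC (adjusted p = 0.00468).

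Col1a1 and Postn also passed between iCEC and pCEC. Col1a1 was lower in iCEC (adjusted p = 0.0332), a call lost without iCEC 1 (0.0921), iCEC 2 (0.0764), pCEC 1 (0.0558), pCEC 2 (0.0919) or pCEC 3 (0.086), with a log2 fold change of -8.07, which was -7.44 without iCEC 3 and -7.24 without pCEC 2. Postn was higher in iCEC (578 ± 899 CPM against 5.46 ± 3.21 CPM, adjusted p = 0.0356), a call lost without pCEC 1 (0.127), pCEC 2 (0.11) or pCEC 3 (0.132), with a log2 fold change of 6.50, which was 3.42 without iCEC 3 and 7.11 without pCEC 2.

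Of 6 other genes known to respond to BMP, 2 rose and none fell in iCEC, and 1 rose and 2 fell in pCEC. Against pNCC the shares called were 33.3% and 50%, beside 31.3% and 62.5% of all genes tested. Dlx3, a homeobox gene of surface epithelia, rose 22.2-fold in iCEC (adjusted p = 0.028) and 74.2-fold in pCEC (adjusted p = 0.00026), and Atoh8 fell 52.3-fold in pCEC (adjusted p = 0.000238, and 160-fold without pCEC 2 by summed counts). The iCEC call of Dlx3 was lost without iCEC 1 (adjusted p = 0.0503), iCEC 2 (0.0589), pNCC 1 (0.107) or pNCC 2 (0.102). In iCEC against pCEC, Dlx3 was 3.35-fold lower (adjusted p = 0.0194), a call lost without iCEC 1 (0.0526), pCEC 1 (0.0747), pCEC 2 (0.0774) or pCEC 3 (0.0783). The homeobox gene Msx2 was 20.1-fold higher in iCEC than in pNCC (adjusted p = 0.0229), a call lost without iCEC 1 (0.0528), pNCC 1 (0.0963), pNCC 2 (0.0826) or pNCC 3 (0.0952), and its log2 fold change of 4.33 was 3.60 without iCEC 3. Against pCEC it was higher too (adjusted p = 0.046), a call that did not hold without iCEC 1 (0.0934), iCEC 3 (0.0575), pCEC 1 (0.147), pCEC 2 (0.142) or pCEC 3 (0.142). The log2 fold change of 3.76 was 3.03 without iCEC 3. Msx1, its relative, stood 24.1-fold higher in iCEC than in pCEC (adjusted p = 0.00811, and 38.5-fold without pCEC 2 by summed counts). Msx1 was also lower in pCEC than in pNCC with overlapping groups (adjusted p = 0.0234), a call lost without pCEC 1 (0.0671), pCEC 3 (0.0755), pNCC 1 (0.0696) or pNCC 2 (0.054), and its log2 fold change of -3.93 was -3.12 without pNCC 1.

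Of 17 other ligands of the superfamily, 3 or 4 were tested in each comparison. Gdf15, a stress-induced ligand that was listed apart from the members, rose 16.6-fold in iCEC (35.0 ± 18.2 CPM against 2.04 ± 0.374 CPM, adjusted p = 0.00113) and fell 14.5-fold in pCEC (0.126 ± 0.0183 CPM, adjusted p = 0.000185), so that it was 246-fold higher in iCEC than in pCEC (adjusted p = 0.00111). Gdf9, a ligand of the oocyte, was below 1 CPM on average in all groups. It was 10.2-fold lower in iCEC than in pNCC by summed counts (adjusted p = 0.0411), a call lost without iCEC 1 (0.116), pNCC 1 (0.14), pNCC 2 (0.125) or pNCC 3 (0.117), and the ratio of summed counts was 29.3 without iCEC 3 (95% counting interval 7.8 to 246). It was 4.2-fold lower in pCEC than in pNCC (adjusted p = 0.0157), a call lost without pCEC 2 (0.0505) or pNCC 1 (0.0611). Lefty1, an inhibitor of Nodal, fell 2.46-fold in pCEC (adjusted p = 0.0168), a call lost without pCEC 2 (0.0609) or pNCC 3 (0.0551).

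The counting was not stated to use strand, so overlapping genes could share reads. In GENCODE release M21, 16 of the 47 members had exons that overlap exons of another gene, and for Bmp5 and Gdf5 the overlap covered 46.7% and 40.3% of their exon bases. For Bmp6, the overlap with Txndc5 covered 5.74% of its exon bases, and the count of Txndc5 over all libraries was 98734 against 2816 for Bmp6. For Acvr2a, a called member, the overlap with Orc4 covered 7.84% of its exon bases, with 15181 counts of Orc4 against 16618 of Acvr2a. For Eng, also called, the overlap with Fpgs covered 1.51%, with 8211 counts of Fpgs against 9054 of Eng. Reads in such overlaps cannot be assigned to either gene.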

How the data were processed

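RNA of 9 libraries was measured, and the authors deposited raw counts, 1 whole number for each gene symbol and library. Per the submitters' processing notes the build was mm10 and edgeR was used. Aligner, counting tool, annotation and strand setting are not given in the sources used here. Per the labels' protocols, NEBNext Ultra libraries were read as pairs of 150 bases. Sample titles gave groups and replicate numbers.

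Each comparison used the 6 libraries of its groups (R 4.3.3, edgeR 4.0.16, filterByExpr, TMM, robust quasi-likelihood test of group, 2-sided). P-values were adjusted by Benjamini-Hochberg across every tested gene, and calls needed an adjusted p under 0.05. SE was derived from the F statistic and adds no information to the test. Folds of groups with at most 10 summed counts are ratios of summed counts with exact 95% intervals, and groups without a count, also after a library was left out, were set to 3 counts in each library (0.0625 to 0.11 CPM), which covers counting error only. CPM used library totals. TPM used exon lengths of GENCODE M21, available for 86.7% of symbols. Promoters came from RefSeq (GRCm38.p6).

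The members and gene lists were chosen with earlier results of these data known. Further pathway genes were named as up to 4 called genes per list and comparison with the smallest adjusted p, and 2 genes this rule names are counted in their lists but not reported here. The model was checked on simulated counts. Alternatives were DESeq2 1.42.0 (its size factors, its Wald test), no filter or a 1 CPM filter, a joint fit of the 3 groups, a replicate block, leaving out libraries singly, pCEC as its polyA library, a 2-fold minimum and, chosen after seeing the data, no scaling beyond library size.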

Additional observations from a re-analysis of the deposited data

How the results depend on the processing

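No called member changed direction under any alternative run. The 2-fold minimum was left out of the tally by member in each comparison. Under every other alternative, calls held for 9 of 16 members in iCEC against pNCC and 28 of 34 in pCEC against pNCC. In iCEC against pCEC they held for 4 of 9 (Tgfb2, Inhba, Inhbb and Tgfbr1), leaving aside the comparison with the single polyA library of pCEC, which called no gene of the whole table and so says nothing on single members. In that comparison the log2 fold changes were 5.73 for Tgfb2, -2.89 for Tgfbr1 and 6.45 for Inhbb, against 5.37, -2.63 and 6.95 with all libraries. Members lower in iCEC than in pNCC numbered 7 with the replicate block and 7 with a 2-fold minimum, against 11, and 6 to 15 with 1 library left out. Members higher in iCEC than in pCEC numbered 3 with the replicate block, 4 with a 2-fold minimum and 0 with the polyA library alone, against 8, and 3 to 12 with 1 library left out. Members lower there numbered 2 with DESeq2 size factors, 6 by the DESeq2 Wald test, 2 with 1 CPM in 3 libraries, 4 with all 9 libraries in one fit and 0 with the polyA library alone, against 1, and 1 to 3 with 1 library left out. The cause of these shifts was not tested. Same-numbered libraries did not deviate together (r from -0.181 to 0.0714, against -0.151 to 0.176 for libraries of different number). With deviations taken from means of 3 libraries, this check cannot exclude a pairing. With the block 2864, 9777 and 1295 genes were called, against 5093, 10382 and 3327. In iCEC against pNCC the block lost the calls of Bmpr2 (adjusted p = 0.0507), Acvr2a (0.0544), Id1 (0.058), Acvrl1 (0.0656) and Smad9 (0.0904). The DESeq2 Wald test called 6589, 10625 and 4888, a 2-fold minimum 2602, 5716 and 1433, and leaving out 1 library 2322 to 7684, 9207 to 10687 and 1131 to 4974. In pCEC against pNCC, fitting all 9 libraries together lost the calls of Tgfb1 (adjusted p = 0.219), Bmp2 (0.136), Bmp4 (0.103), Smad1 (0.0739), Smad5 (0.0566) and Id4 (0.618), and the polyA library alone lost Bmp4 (0.055), Smad5 (0.12) and Id4 (0.0652). Without scaling beyond library size the median log2 fold change of all genes was -0.14 in pCEC against pNCC and 0.17 in iCEC against pCEC.

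The changes of sign were all in members that were not called. In iCEC against pNCC, the log2 fold change of Smad2 was -0.03 with DESeq2 size factors and by the Wald test, -0.01 with no filter, -0.02 with all 9 libraries and -0.02 with the replicate block, and that of Id4 was -0.93 with the replicate block. In iCEC against pCEC, Bmp6 was at 0.01 with no filter, 0.12 without scaling and 0.37 with the polyA library alone. Acvr1b was at -0.01 with DESeq2 size factors and by the Wald test, -0.04 with all 9 libraries, -0.001 with the replicate block and -0.05 with the polyA library alone. Bmpr1a was at -0.01 and Eng at 0.11 with the polyA library alone, Acvr2a at 0.09 without scaling, and Smad5 at -0.04 with all 9 libraries, -0.01 with the replicate block and -0.24 with the polyA library alone. Id4 was at -0.11 with the replicate block. With 1 library left out, the ranges were as follows in iCEC against pNCC: -0.07 to 0.97 for Tgfb1, -0.65 to 0.35 for Bmp2, -4.38 to 0.38 for Bmp3, -2.54 to 0.27 for Bmp4, -0.23 to 0.14 for Smad2 and -1.82 to 2.01 for Id4. In pCEC against pNCC they were -0.19 to 0.68 for Acvr2b and -0.18 to 0.01 for Smad2, and in iCEC against pCEC they were -0.18 to 0.16 for Bmp6, -0.12 to 0.17 for Acvr1b, -0.20 to 0.39 for Bmpr1a, -0.68 to 0.22 for Acvr2a, -0.19 to 1.37 for Bambi, -0.08 to 0.29 for Smad2, -0.28 to 0.20 for Smad5, -0.49 to 0.08 for Id2 and -0.92 to 2.96 for Id4.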
